A study of Mus musculus with 12 samples.

Results

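The genes described here are 10 genes of cytokines that B cells can secrete: Il4, Il6, Il10, Il12a, Il12b, Il1b, Ifng, Tgfb1, Il15 and Il16. They were found by their symbols among the 50090 gene names on the array and were measured by 12 probes, 1 probe for each gene except Ifng and Il16, which had 2 probes each. All 12 probes passed the filter on dim probes, and 9 of the 10 genes were well above background on all 12 arrays. Il15 was well above background on 6 of the 12 arrays.

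A B cell does more than make antibody. It also releases cytokines that instruct T cells, myeloid cells and other B cells, and the mixture it releases depends on which receptors have been engaged. Toll-like receptor 2 (TLR-2) recognises bacterial lipopeptides and signals to NF-kB, a transcription factor that switches on many inflammatory cytokine genes, whereas CD40 and CD86 are surface molecules that receive signals from T cells through CD40 ligand and through CD28 or CTLA-4.

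Resting B (RB) cells were taken from spleens of 6 week old BALB/c mice by removal of CD43-bearing and other cells. The labels call the mice female, while the methods allow either sex. Every group was kept for 4 h in the same medium with serum, and the groups were unstimulated cells, Pam2CSK4 (a synthetic diacylated lipopeptide and TLR-2 ligand), anti-CD86, anti-CD86 with Pam2CSK4 (TLR2.CD86), anti-CD40, and anti-CD40 with Pam2CSK4. In the methods the anti-CD86 antibody was biotinylated and cross-linked with streptavidin. The groups had no engineered allele. Each of the 6 groups had 2 arrays, which a legend of the study calls biological replicates. The labels do not say whether they came from separate cultures or pools of mice, so the p-values measure the spread between these arrays, which may be technical. An array weighs RNA from the whole culture, and fewer cells expressing a gene and less RNA per cell cannot be told apart.

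RNA was hybridised to 1-colour Agilent arrays, and each value given is a log2 signal from which the array's own 75th percentile was subtracted, so that 0 marks a signal equal to that percentile. The arrays lay on 2 slides, which the array barcodes name. Slide 1 held 8 arrays, including both unstimulated arrays and both arrays of anti-CD40 with Pam2CSK4, and slide 2 held replicate 2 of the other groups. Replicates differed by a median of 0.089 and 0.11 log2 units in the groups that lay on 1 slide and by 0.21 to 0.33 in those split between slides. With slide as a term, 9 of the 10 genes were lower on slide 2, by 0.02 (Il1b) to 0.54 (Tgfb1). The fit with slide as a block is therefore given beside the fit on group means alone. All 8 B cell markers (among them Ms4a1, Cd79a and Pax5) were well above background on all 12 arrays. The markers of other cells were measurable too: 6 of 7 monocyte and macrophage markers, 7 of 8 T cell, 5 of 6 NK cell, 6 of 6 dendritic cell, 5 of 5 neutrophil and 4 of 6 mast cell and basophil and 4 of 4 plasma cell markers were well above background on every array, and no marker was below it throughout.

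The promoters of the genes that rose with Pam2CSK4 are shown because NF-kB, AP-1 and C/EBP factors are known regulators of these genes. RefSeq (GRCm38.p6) gave promoters for 8 of the 10 genes, and Il10 and Il15 were not matched. The 250 bases before the annotated start are printed 5′ to 3′ on the strand of the gene, with matches in capitals to the NF-kB consensus, the AP-1 motif TGANTCA and the C/EBP motif TTNNGNAA, searched on both strands. Il6 lies on the plus strand (chr5:30012864-30013113), Il12b on the plus strand (chr11:44399813-44400062) and Il1b on the minus strand (chr2:129371140-129371389).
Il6: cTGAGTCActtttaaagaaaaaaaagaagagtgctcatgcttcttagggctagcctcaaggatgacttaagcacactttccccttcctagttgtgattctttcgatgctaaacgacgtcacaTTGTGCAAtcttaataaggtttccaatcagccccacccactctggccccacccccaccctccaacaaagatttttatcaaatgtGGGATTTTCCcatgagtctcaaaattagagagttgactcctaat
Il12b: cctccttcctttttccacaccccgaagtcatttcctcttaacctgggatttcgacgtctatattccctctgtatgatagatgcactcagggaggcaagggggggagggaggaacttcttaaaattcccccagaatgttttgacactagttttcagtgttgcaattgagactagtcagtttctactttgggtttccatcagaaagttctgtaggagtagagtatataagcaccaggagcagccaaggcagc
Il1b: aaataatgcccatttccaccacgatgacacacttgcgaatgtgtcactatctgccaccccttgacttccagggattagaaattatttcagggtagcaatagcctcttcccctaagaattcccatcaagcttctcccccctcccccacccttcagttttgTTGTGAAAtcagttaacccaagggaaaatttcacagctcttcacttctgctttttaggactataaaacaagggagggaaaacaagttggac

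The Il6 window held 1 match to each of the 3 motifs, with the NF-kB match GGGATTTTCC from base -44 to -35 before the start. The Il1b window held the C/EBP match TTGTGAAA from -91 to -84 and a TATA box (TATAAA, searched on the gene's strand) from -31 to -26. The Il12b window held none of these letters, which says nothing of the factors themselves. Over all 32851 promoter windows of the same length, 7.25% held the NF-kB consensus, 6.75% the AP-1 motif, 36.8% the C/EBP motif and 7.59% the TATA box. The Tgfb1 promoter and 1 of the 3 Il16 promoters also held an NF-kB match.

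**Figure D1:**
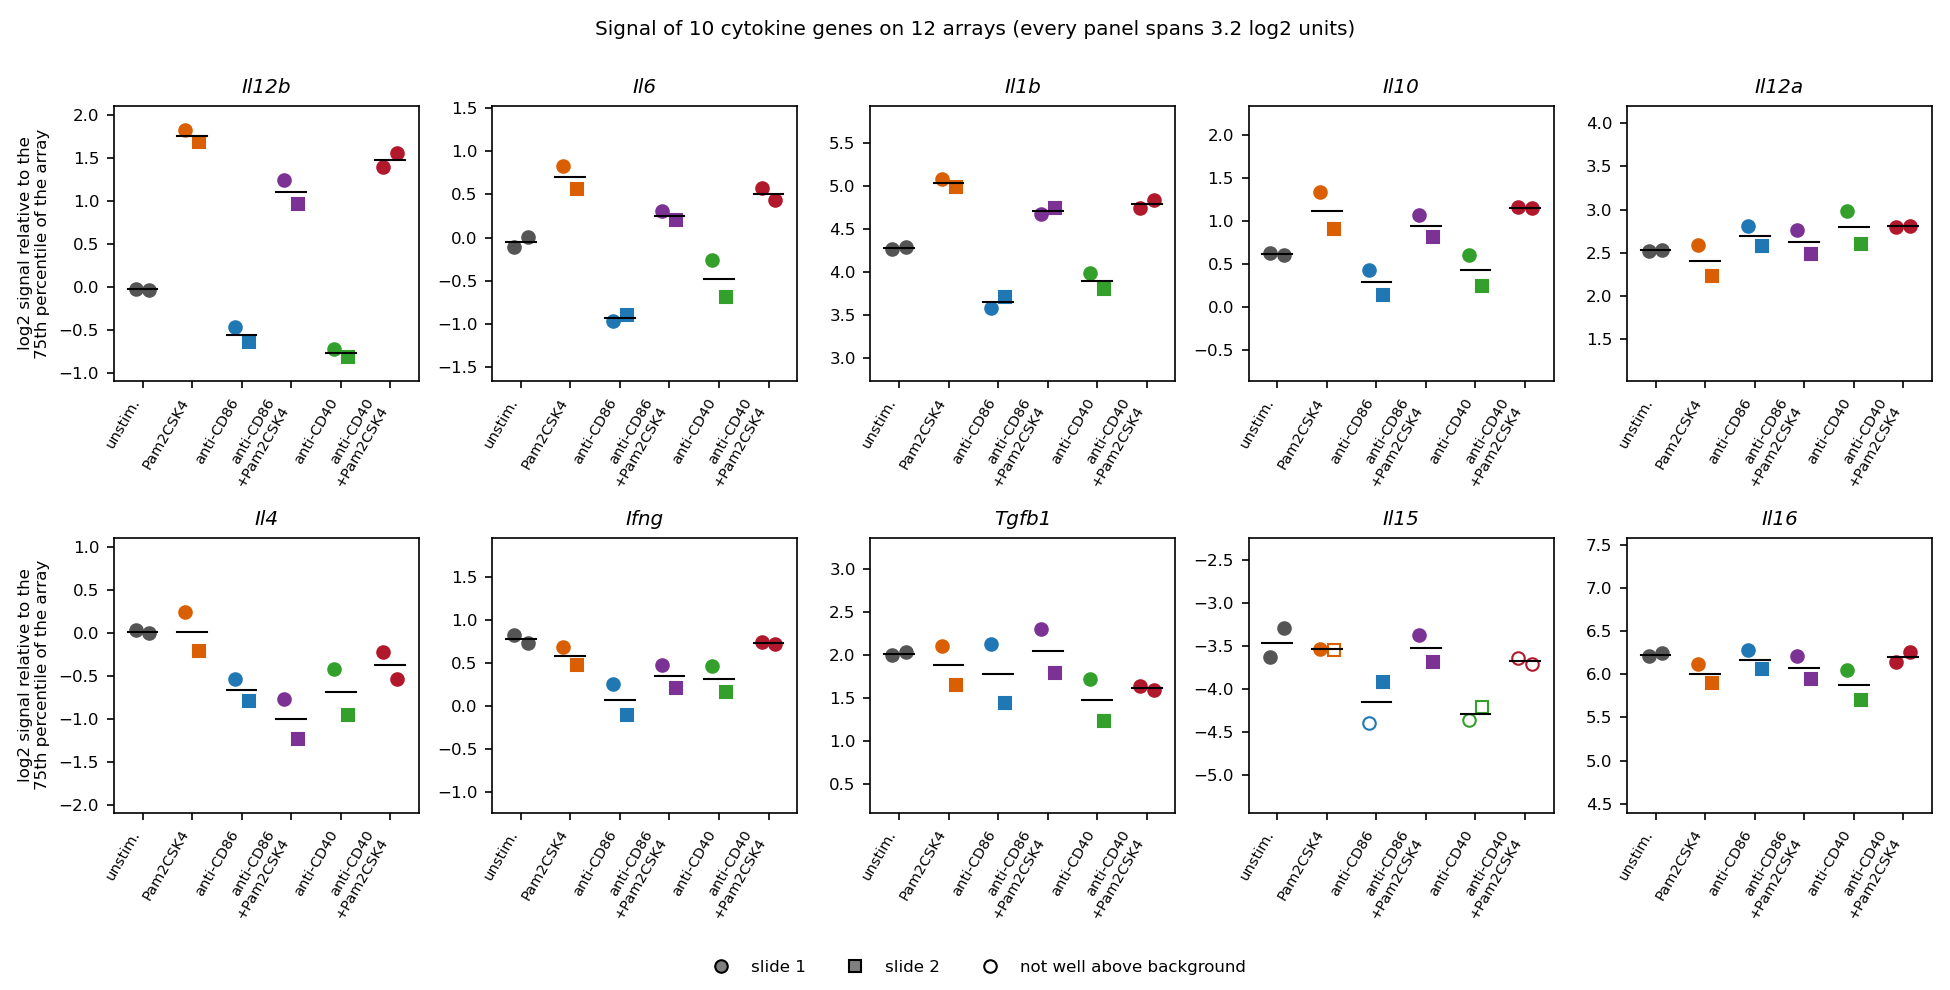
Log2 signal above the array's 75th percentile for the 10 cytokine genes (brightest probe) in the 6 groups, with 1 point per array (circle, slide 1; square, slide 2; open, not well above background) and a line at the group mean. The Il12b, Il6, Il1b and Il10 points of all 3 groups with Pam2CSK4 lie above those of the 3 groups without it, while Il16 spans 5.70 to 6.28 over all arrays.

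Il12b, Il6, Il1b and Il10 lay higher with the TLR-2 ligand whichever antibody was present. The share of all probes that separate these arrays in the same way is not given, so the lack of overlap only describes these genes. In a fit of group means with limma, with p-values adjusted by Benjamini-Hochberg over all 31601 probes, 1 of the 10 genes (Il12b) passed an adjusted p of 0.05 when Pam2CSK4 was compared with unstimulated cells, where 0.146% of all probes passed. With Pam2CSK4 added to anti-CD86, 3 of the 10 (Il12b, Il6 and Il1b) passed, where 0.225% of all probes did. With Pam2CSK4 added to anti-CD40, the passing genes were 3 of the 10 and again Il12b, Il6 and Il1b, where 2.90% of all probes passed. All of these were increases. With slide as a block the numbers were 4, 5 and 5 of the 10, again all increases, against backgrounds of 11.1%, 7.74% and 15.2%. These slide-block calls took in Il12b, Il6, Il1b and Il10 in all 3 comparisons, and Ifng on top of either antibody. Under median normalization, which moved the median change of all probes to -0.27 for Pam2CSK4 alone and to 0.50 for Pam2CSK4 on anti-CD40, the numbers were 0, 0 and 1 of the 10. On group means the median log2 change of the 10 genes was -0.04 for Pam2CSK4 alone (all probes -0.07, and 0.17 for the 10 genes with slide as a block), 0.45 on anti-CD86 (all probes -0.01) and 0.52 on anti-CD40 (all probes 0.05).

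**Figure D2:**
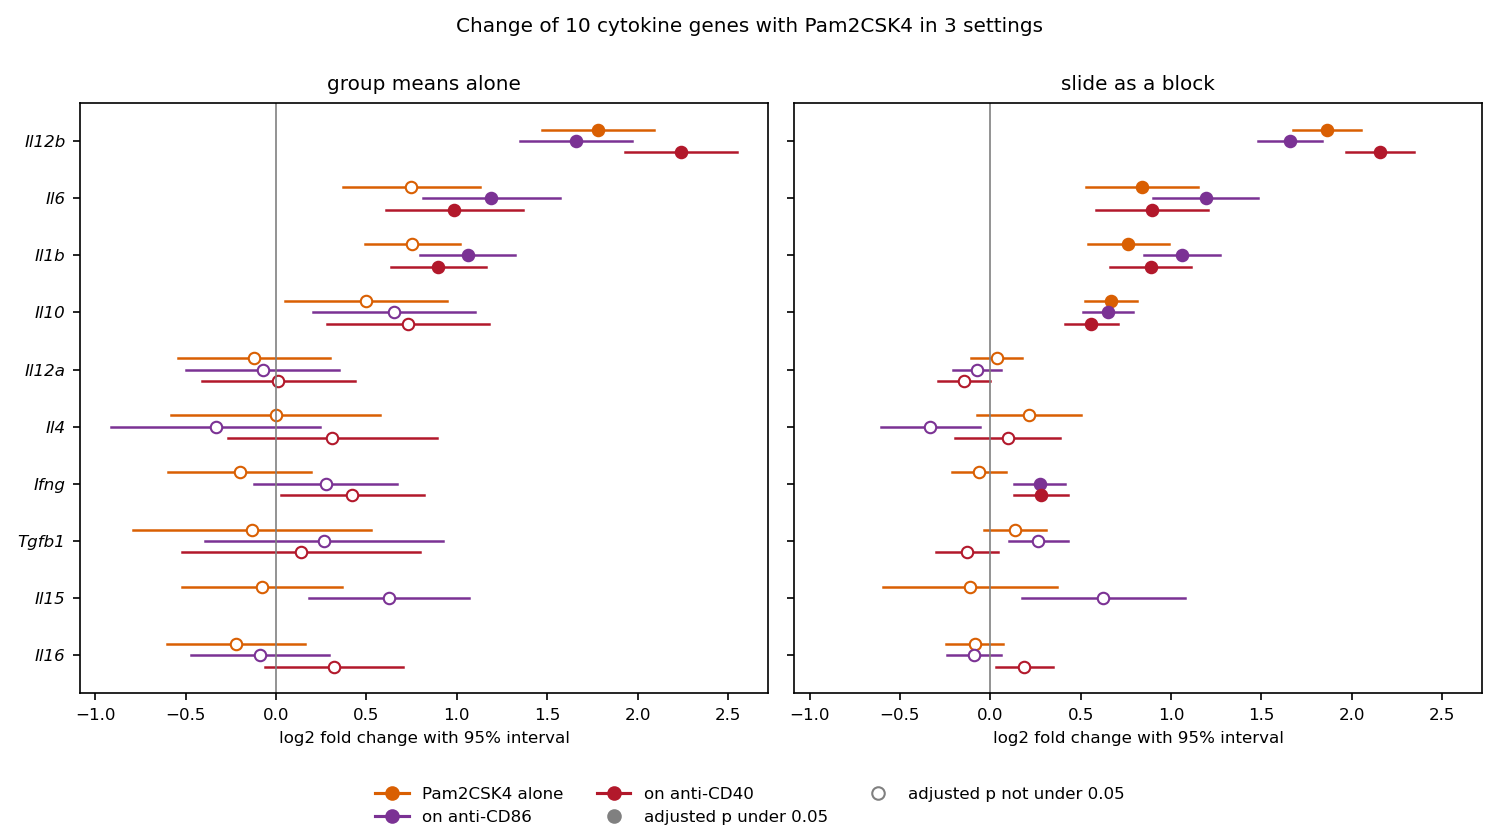
Log2 fold change with 95% interval of each cytokine gene for Pam2CSK4 against unstimulated cells, Pam2CSK4 on anti-CD86 and Pam2CSK4 on anti-CD40, from group means alone (left) and with slide as a block (right). Filled points had an adjusted p under 0.05, and Il15 is left out where a group had no array well above background. Il12b lies farthest to the right in each setting, from 1.66 to 2.24 in the left panel.

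Il12b encodes the chain that IL-12 and IL-23 share, which directs T cells towards inflammatory fates. Its signal was -0.03 on both unstimulated arrays, and it reached 1.82 and 1.68 with Pam2CSK4. It was -0.47 and -0.64 with anti-CD86 and 1.24 and 0.97 with TLR2.CD86. It was -0.73 and -0.81 with anti-CD40 and 1.39 and 1.55 with anti-CD40 and Pam2CSK4. The 6 arrays with the ligand all lay above the 6 without it. Il12b rose 3.44-fold with Pam2CSK4 alone (log2 1.78, SE 0.13, adjusted p = 0.00483), 3.16-fold on anti-CD86 (log2 1.66, SE 0.13, adjusted p = 0.00415) and 4.72-fold on anti-CD40 (log2 2.24, SE 0.13, adjusted p = 9.24e-05). On slide 1 alone, with 1 array in at least 1 group of each pair, the differences were 1.85, 1.71 and 2.20. On slide 2 the difference on anti-CD86 was 1.60. Under median normalization limma did not pass Pam2CSK4 alone (1.59, adjusted p = 0.208) or on anti-CD86 (1.51, adjusted p = 0.438). Nor did it then pass TLR2.CD86 (0.85, adjusted p = 0.551) or anti-CD40 with Pam2CSK4 (1.39, adjusted p = 0.169) against unstimulated cells. Against unstimulated cells TLR2.CD86 raised Il12b by 1.13 (SE 0.13, adjusted p = 0.00846) and anti-CD40 with Pam2CSK4 raised it by 1.50 (SE 0.13, adjusted p = 0.000454). Without unstimulated replicate 1 or replicate 2, the change with Pam2CSK4 alone was 1.79 and 1.78 with an adjusted p of 0.06 and 0.0782, and the change with TLR2.CD86 was 1.14 and 1.13 with an adjusted p of 0.0763 and 0.0915.

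Il6 encodes a cytokine of fever, acute phase responses and plasma cell growth. It lay at -0.11 and 0.01 in unstimulated cells and at 0.83 and 0.56 with Pam2CSK4. The values were -0.97 and -0.90 with anti-CD86 and 0.31 and 0.20 with TLR2.CD86, and the pair with anti-CD40 lay at -0.27 and -0.69, against 0.58 and 0.44 once Pam2CSK4 was added. No group with the ligand overlapped its counterpart without it. The rise passed the test on anti-CD86 (log2 1.19, SE 0.16, adjusted p = 0.0408) and on anti-CD40 (log2 0.98, SE 0.16, adjusted p = 0.0202). For Pam2CSK4 alone the log2 change was 0.75 (SE 0.16, adjusted p = 0.127; with slide as a block 0.84, adjusted p = 0.0164). Against unstimulated cells, anti-CD40 with Pam2CSK4 stood at 0.56 (SE 0.16, adjusted p = 0.0514; with slide as a block adjusted p = 0.0101). The Il6 calls were near the threshold, and leaving out either array of anti-CD86, TLR2.CD86, unstimulated, Pam2CSK4 or anti-CD40 with Pam2CSK4 gave an adjusted p of 0.0696 to 0.246 for the change on anti-CD86. The change on anti-CD40 had an adjusted p of 0.0501 to 0.146 without unstimulated replicate 1 or 2, anti-CD40 replicate 2, or either array of anti-CD40 with Pam2CSK4.

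Il1b encodes the precursor of interleukin 1 beta, a fever-inducing cytokine that caspase-1 cuts to its active form. Its signal was 4.28 and 4.30 in unstimulated cells, 5.09 and 4.99 with Pam2CSK4, 3.58 and 3.72 with anti-CD86 and 4.67 and 4.74 with TLR2.CD86. With anti-CD40 it was 3.99 and 3.80, and with anti-CD40 and Pam2CSK4 it was 4.75 and 4.84. As with Il6, all arrays with the ligand lay above all arrays without it. Il1b rose by 1.06 on anti-CD86 (SE 0.11, adjusted p = 0.0147), by 0.90 on anti-CD40 (SE 0.11, adjusted p = 0.00616) and by 0.51 between unstimulated cells and anti-CD40 with Pam2CSK4 (SE 0.11, adjusted p = 0.0186). With Pam2CSK4 alone it stood 0.75 above unstimulated cells (SE 0.11, adjusted p = 0.0664; with slide as a block 0.76, adjusted p = 0.00997). For TLR2.CD86 against unstimulated cells the difference was 0.42 (SE 0.11, adjusted p = 0.0519; with slide as a block 0.43, adjusted p = 0.0133). Leaving out an array of unstimulated cells, anti-CD86 or TLR2.CD86 gave an adjusted p of 0.0529 to 0.125 for the change on anti-CD86, and leaving out replicate 2 of anti-CD40 with Pam2CSK4 gave 0.069 for the change on anti-CD40. The third of these changes, against unstimulated cells, had an adjusted p of 0.077 to 0.13 without any 1 of its own 4 arrays.

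Il10 encodes the cytokine by which regulatory B cells restrain inflammation. Its signal lay at 0.63 and 0.61 in unstimulated cells, and the arrays with Pam2CSK4 alone gave 1.33 and 0.90. It was 0.43 and 0.14 with anti-CD86, 1.07 and 0.81 with TLR2.CD86, 0.61 and 0.24 with anti-CD40, and 1.16 and 1.14 with anti-CD40 and Pam2CSK4. The groups with and without ligand did not overlap, but on group means no Il10 comparison passed the test. The log2 changes were 0.50 for Pam2CSK4 alone (SE 0.19, adjusted p = 0.285), 0.65 on anti-CD86 (SE 0.19, adjusted p = 0.375) and 0.73 on anti-CD40 (SE 0.19, adjusted p = 0.102). The slide-block values were 0.67 (adjusted p = 0.00505), 0.65 (adjusted p = 0.00408) and 0.56 (adjusted p = 0.00295). Within slide 1 the differences were 0.72, 0.64 and 0.55, and within slide 2 the difference on anti-CD86 was 0.67. Against unstimulated cells the block fit also gave 0.49 for TLR2.CD86 (group means 0.32, SE 0.19, adjusted p = 0.301, block adjusted p = 0.0022) and 0.53 for anti-CD40 with Pam2CSK4 (group means 0.53, SE 0.19, adjusted p = 0.0985, block adjusted p = 0.000567).

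Most of the 10 cytokine genes read lower with either antibody alone than in unstimulated cells, although few passed the test. The isotype control was not analysed here, so binding of antibody or streptavidin and signalling through CD86 or CD40 cannot be told apart. Relative to unstimulated cells, anti-CD86 lowered 2 of the 10 genes (Il6 and Il1b), where 2.17% of all probes passed, and anti-CD40 lowered 2 of the 10 (Il12b and Il15), where 16.8% of all probes passed. When slide was a block, 7 genes passed for anti-CD86 (6 lower and Il12a higher; 28.5% of all probes) and 8 passed for anti-CD40 (7 lower and Il12a higher; 37.3% of all probes). The median log2 change of the 10 genes was -0.58 for anti-CD86 and -0.45 for anti-CD40, against -0.05 and -0.02 over all probes. On group means 9 of the 10 genes had a negative value in both comparisons, Il12a being the exception. With slide as a block 7 of the 10 were negative for anti-CD86 (Tgfb1 and Il16 turned to 0.03 and 0.07) and 9 for anti-CD40, with medians of -0.45 and -0.33. When the antibody was added to Pam2CSK4, none of the 10 passed for either antibody on group means (0.0633% of all probes for anti-CD86 and 9.97% for anti-CD40), although 4 genes had an unadjusted p under 0.05 for anti-CD86 and 0 genes did for anti-CD40. The slide-block fit called Il4 and Il12b lower for anti-CD86 on Pam2CSK4 (2 of the 10; 11.0% of all probes). For anti-CD40 on Pam2CSK4, Il4, Il12b and Tgfb1 were lower and Il12a was higher in that fit (4 of the 10; 31.5% of all probes).

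**Figure D3:**
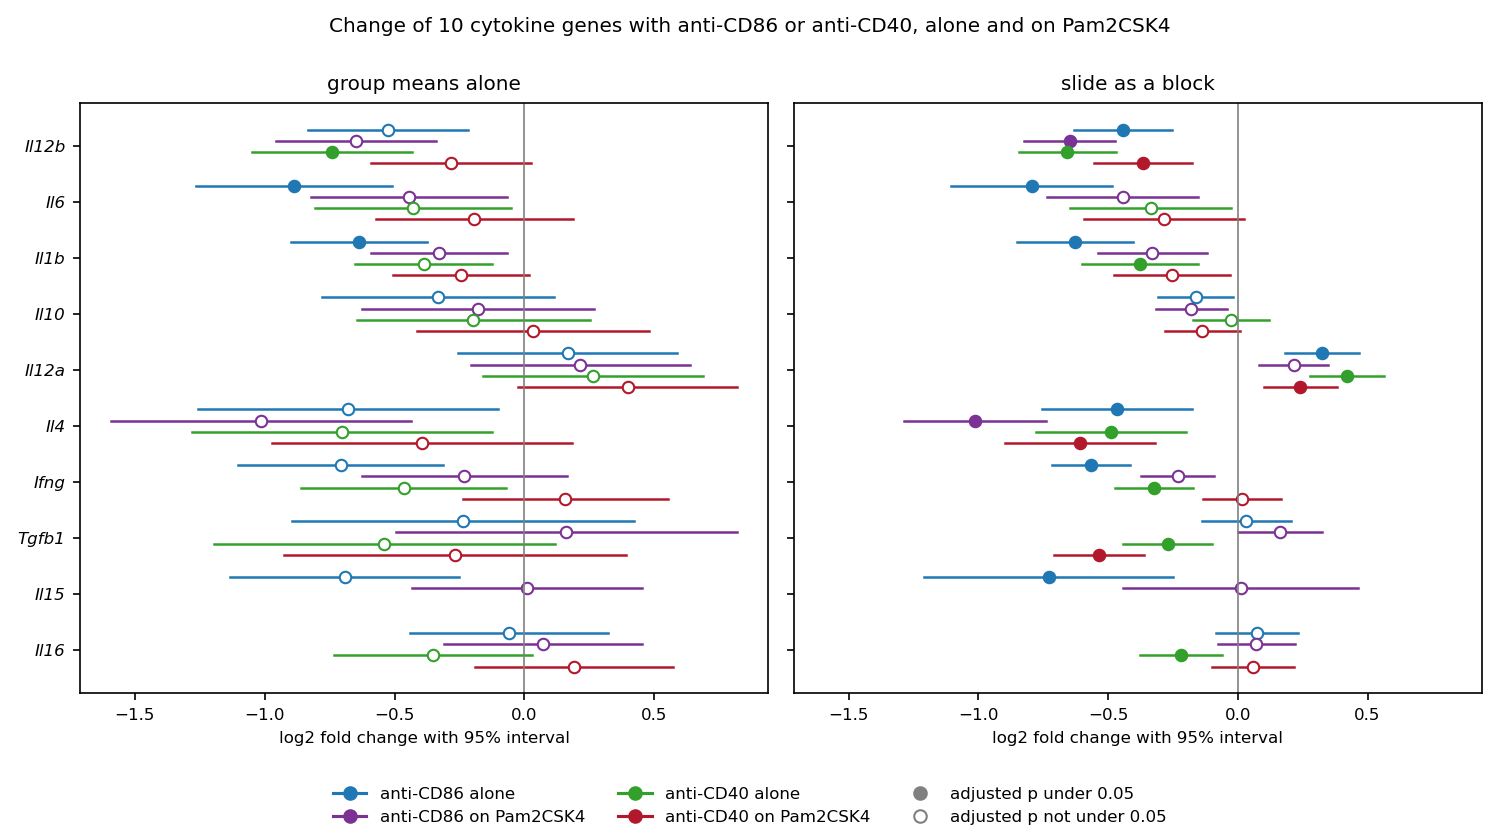
Log2 fold change with 95% interval of each cytokine gene for anti-CD86 and for anti-CD40, each against unstimulated cells and each added to Pam2CSK4, from group means alone (left) and with slide as a block (right). Filled points had an adjusted p under 0.05, and Il15 is left out where a group had no array well above background. In the left panel Il6, Il1b and Il12b carry the only filled points, for anti-CD86 alone or anti-CD40 alone.

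The inflammatory genes that rose with Pam2CSK4 lay lower under either antibody alone. Il6 fell by 0.89 with anti-CD86 (SE 0.16, adjusted p = 0.0436) and Il1b fell by 0.64 (SE 0.11, adjusted p = 0.041), and in both genes the anti-CD86 arrays lay below the unstimulated ones. For Il12b the change with anti-CD86 was -0.53 (SE 0.13, adjusted p = 0.0782; with slide as a block -0.44, adjusted p = 0.00892). Il12b fell by 0.74 with anti-CD40 (SE 0.13, adjusted p = 0.0122), and its 2 anti-CD40 arrays were the lowest of the 12. The change of Il1b with anti-CD40 was -0.39 (SE 0.11, adjusted p = 0.0528; with slide as a block adjusted p = 0.0199), and that of Il6 was -0.43 (SE 0.16, adjusted p = 0.109; with slide as a block -0.34, adjusted p = 0.0856). Added to Pam2CSK4, anti-CD86 gave -0.65 for Il12b (SE 0.13, adjusted p = 0.169; with slide as a block adjusted p = 0.0101), with -0.58 within slide 1 and -0.72 within slide 2. Added to Pam2CSK4, anti-CD40 gave -0.28 for Il12b (SE 0.13, adjusted p = 0.225; with slide as a block -0.36, adjusted p = 0.0145). Both anti-CD86 calls were lost without any 1 of the arrays of the other groups except those of anti-CD40 (adjusted p 0.057 to 0.28 for the arrays of anti-CD86, unstimulated cells, Pam2CSK4, TLR2.CD86 and anti-CD40 with Pam2CSK4). The Il12b call for anti-CD40 was lost without unstimulated replicate 1 (adjusted p = 0.0881), unstimulated replicate 2 (adjusted p = 0.0909) or anti-CD40 replicate 2 (adjusted p = 0.0569).

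Combined stimulation was also set against unstimulated cells. TLR2.CD86 changed 2 of the 10 genes, Il12b up and Il4 down, where 10.8% of all probes passed, and with slide as a block 7 genes passed, of which Il10, Il12a, Il12b, Il1b and Tgfb1 were higher and Il4 and Ifng lower (35.1% of all probes). Anti-CD40 with Pam2CSK4 raised 2 of the 10, Il12b and Il1b, where 18.2% of all probes passed. In the slide-block fit Il6, Il10, Il12a, Il12b and Il1b were higher and Il4 and Tgfb1 lower in that comparison (47.5% of all probes). The median log2 change of the 10 genes was 0.06 for TLR2.CD86 and 0.12 for anti-CD40 with Pam2CSK4, beside -0.03 and 0.01 over all probes.

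Il4 encodes the cytokine that drives T helper cells of the second type and the switch to IgG1 and IgE. It lay at 0.03 and -0.0019 in unstimulated cells and at 0.24 and -0.22 with Pam2CSK4, so that these groups overlapped. It was lower under both antibodies, at -0.54 and -0.79 with anti-CD86, -0.77 and -1.23 with TLR2.CD86, -0.42 and -0.96 with anti-CD40, and -0.23 and -0.54 with anti-CD40 and Pam2CSK4. TLR2.CD86 lowered Il4 2.02-fold from its unstimulated level (log2 -1.01, SE 0.25, adjusted p = 0.0423; with slide as a block -0.80, adjusted p = 0.00406). The difference between TLR2.CD86 and Pam2CSK4 was of the same size (log2 -1.01, SE 0.25) with an adjusted p of 0.227 (with slide as a block 0.00998), and it was -1.01 within slide 1 and -1.02 within slide 2. For anti-CD86 alone the change was -0.68 (SE 0.25, adjusted p = 0.159; with slide as a block -0.47, adjusted p = 0.0312), and for anti-CD40 alone -0.70 (SE 0.25, adjusted p = 0.0895; with slide as a block -0.49, adjusted p = 0.0199). Anti-CD40 with Pam2CSK4 stood at -0.39 against unstimulated cells (SE 0.25, adjusted p = 0.318, block adjusted p = 0.0284) and at -0.39 against Pam2CSK4 (SE 0.25, adjusted p = 0.377; with slide as a block -0.61, adjusted p = 0.0111). The TLR2.CD86 call was lost under median normalization (adjusted p = 0.377), quantile normalization (adjusted p = 0.0558), unmoderated variances (adjusted p = 0.0669), slide 1 alone (adjusted p = 0.0533) and no filter on dim probes (adjusted p = 0.153), and without any 1 array of unstimulated cells, anti-CD86, TLR2.CD86 or anti-CD40 with Pam2CSK4 (adjusted p 0.0559 to 0.201).

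Ifng encodes interferon gamma, which activates macrophages and promotes IgG2a. Its brighter probe read 0.82 and 0.73 in unstimulated cells, 0.68 and 0.47 with Pam2CSK4, 0.25 and -0.11 with anti-CD86 and 0.48 and 0.21 with TLR2.CD86. With anti-CD40 it read 0.46 and 0.17, and with anti-CD40 and Pam2CSK4 it read 0.75 and 0.72. The anti-CD86 arrays lay below the unstimulated ones with a log2 difference of -0.71 (SE 0.17, adjusted p = 0.0695; with slide as a block -0.57, adjusted p = 0.00269). For anti-CD40 the difference was -0.47 (SE 0.17, adjusted p = 0.0976; with slide as a block -0.32, adjusted p = 0.00803), and for TLR2.CD86 it was -0.43 (SE 0.17, adjusted p = 0.133; with slide as a block -0.29, adjusted p = 0.0131). Adding Pam2CSK4 gave 0.27 on anti-CD86 (SE 0.17, adjusted p = 0.731, block adjusted p = 0.0434) and 0.42 on anti-CD40 (SE 0.17, adjusted p = 0.237; with slide as a block 0.28, adjusted p = 0.0308). The dimmer Ifng probe had the same sign in these 5 differences, with -0.38, -0.50, -0.25, 0.13 and 0.51, and with slide as a block its value passed only for anti-CD40 (adjusted p = 0.0296).

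Il12a encodes the chain that joins the Il12b product in IL-12 and the Ebi3 product in IL-35. It kept a narrow range of 2.23 to 2.99 over the 12 arrays, with 2.52 and 2.53 in unstimulated cells, 2.59 and 2.23 with Pam2CSK4 and 2.81 and 2.58 with anti-CD86. It read 2.76 and 2.48 with TLR2.CD86, 2.99 and 2.60 with anti-CD40, and 2.80 and 2.81 with anti-CD40 and Pam2CSK4. Unlike Il12b it did not pass in any comparison on group means, and its log2 changes with Pam2CSK4 were -0.12, -0.07 and 0.01, with intervals of -0.54 to 0.30, -0.50 to 0.35 and -0.41 to 0.43. In the fit with slide as a block Il12a was higher than in unstimulated cells by 0.32 with anti-CD86 (adjusted p = 0.00975; group means 0.17, SE 0.18, adjusted p = 0.624) and by 0.42 with anti-CD40 (adjusted p = 0.00242; group means 0.26, SE 0.18, adjusted p = 0.343, and -0.30 under median normalization). In the same fit it was higher by 0.25 with TLR2.CD86 (adjusted p = 0.0181; group means 0.09, SE 0.18, adjusted p = 0.767, and -0.19 under median normalization) and by 0.28 with anti-CD40 and Pam2CSK4 (adjusted p = 0.00737; group means 0.28, SE 0.18, adjusted p = 0.34). Against Pam2CSK4 alone the last group stood at 0.24 in the block fit (adjusted p = 0.0234; group means 0.40, SE 0.18, adjusted p = 0.211).

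Tgfb1 encodes a latent cytokine that restrains immune cells and directs the switch to IgA. It was 1.99 and 2.03 in unstimulated cells and 2.11 and 1.65 with Pam2CSK4. It was 2.12 and 1.43 with anti-CD86, 2.30 and 1.79 with TLR2.CD86, 1.72 and 1.23 with anti-CD40 and 1.63 and 1.59 with anti-CD40 and Pam2CSK4. In each group split between the slides the array on slide 1 was the higher one, and no comparison passed on group means. With slide as a block Tgfb1 was lower by 0.40 with anti-CD40 and Pam2CSK4 than in unstimulated cells (adjusted p = 0.00363; group means -0.40, SE 0.29, adjusted p = 0.379) and lower by 0.54 than with Pam2CSK4 alone (adjusted p = 0.00246; group means -0.27, SE 0.29, adjusted p = 0.619). In that fit the change was -0.27 with anti-CD40 alone (adjusted p = 0.0255; group means -0.54, SE 0.29, adjusted p = 0.224) and 0.30 with TLR2.CD86 (adjusted p = 0.0196; group means 0.03, SE 0.29, adjusted p = 0.968, and -0.26 under median normalization).

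Il15 encodes a cytokine that sustains NK cells and memory T cells and is usually carried on its receptor chain Il15ra. It was near the limit of measurement, at -3.63 and -3.29 in unstimulated cells, where both arrays were well above background, and at -3.37 and -3.69 with TLR2.CD86, where both were too. Of the other groups, Pam2CSK4 (-3.53 and -3.55) and anti-CD86 (-4.39 and -3.92) had 1 such array each, and the arrays with anti-CD40 (-4.36 and -4.21) and with anti-CD40 and Pam2CSK4 (-3.64 and -3.71) were not well above background. Il15 was at least 1.13-fold lower with anti-CD40 than in unstimulated cells, a bound that sets the mean of the unstimulated arrays against the lowest signal well above background on each anti-CD40 array, or the probe's own signal where that was higher. The bound itself was not tested. The limma fit compared the signals as read (means -4.29 and -3.46, adjusted p = 0.0266), those with anti-CD40 being not well above background. The Il15 call was lost under median normalization, without a filter on dim probes, and without either unstimulated array, anti-CD40 replicate 2 or either array of anti-CD40 with Pam2CSK4. For anti-CD40 with Pam2CSK4 the bound was at least 1.06-fold lower (adjusted p = 0.51 in the fit of the signals as read). For anti-CD86 the log2 change was -0.69 (SE 0.19, adjusted p = 0.0922; with slide as a block -0.73, adjusted p = 0.0374), and TLR2.CD86 stood 0.63 above anti-CD86 (SE 0.19, adjusted p = 0.38).

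Il16 encodes a precursor whose end part attracts CD4+ T cells. Its brighter probe read between 5.70 and 6.28 on all 12 arrays, with 6.21 and 6.24 in unstimulated cells, 6.12 and 5.90 with Pam2CSK4 and 6.28 and 6.06 with anti-CD86. It read 6.22 and 5.94 with TLR2.CD86, 6.05 and 5.70 with anti-CD40 and 6.14 and 6.26 with anti-CD40 and Pam2CSK4. The change with anti-CD40 was -0.35 (SE 0.17, adjusted p = 0.178; with slide as a block -0.22, adjusted p = 0.0414), and the dimmer probe gave -0.35 (block adjusted p = 0.0921). In the other 8 differences between groups the log2 values of Il16 ran from -0.22 to 0.32 and did not pass in either fit.

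The interaction of the signals, the log2 effect of both together minus the sum of the single effects, was tested for each antibody with Pam2CSK4. For CD86 with TLR-2 none of the 10 genes passed with limma on group means (0.0190% of all probes) or with slide as a block (0.234% of all probes), and 1 gene had an unadjusted p under 0.05 on group means. For CD40 with TLR-2 none passed either (1.16% and 8.58% of all probes), and 4 genes had an unadjusted p under 0.05. On group means the estimates were positive for 8 of the 10 genes with CD86 and for 10 of the 10 with CD40, with medians of 0.23 and 0.29 beside 0.07 and 0.16 over all probes. With slide as a block 5 and 6 of the 10 were positive, with medians of 0.06 and 0.09. Both interactions use the same unstimulated and Pam2CSK4 arrays. Il12b stood at -0.12 with CD86 (interval -0.56 to 0.31) and at 0.46 with CD40 (interval 0.02 to 0.89, adjusted p = 0.244; with slide as a block 0.29, adjusted p = 0.175). Il6 stood at 0.44 (interval -0.09 to 0.98) and 0.24 (interval -0.30 to 0.77), and Il1b at 0.31 (interval -0.06 to 0.68) and 0.14 (interval -0.23 to 0.51). Ifng gave 0.62 with CD40 (SE 0.24, adjusted p = 0.228; with slide as a block 0.34, adjusted p = 0.0747). Il16 gave 0.54 with CD40 (SE 0.23, adjusted p = 0.257; with slide as a block 0.28, adjusted p = 0.138), and Il15 gave 0.70 with CD86 (SE 0.27, adjusted p = 0.969; with slide as a block 0.74, adjusted p = 0.262).

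Other genes of these pathways were counted from lists of cytokines, receptor chains, maturation factors and regulators. Their counts on group means stand beside the shares of all probes already given, which against unstimulated cells were 0.146% for Pam2CSK4, 2.17% for anti-CD86, 10.8% for TLR2.CD86, 16.8% for anti-CD40 and 18.2% for anti-CD40 with Pam2CSK4. Of 21 other cytokines on the array, 11 could be tested, and Il1a, Il2, Il3, Il5, Il7, Il17a, Il21, Il23a, Il33 and Tgfb2 could not. With Pam2CSK4 alone 0 of the 11 passed limma on group means (5 at an unadjusted p under 0.05). With slide as a block, where 11.1% of all probes passed, Il1rn (the natural antagonist of interleukin 1), Tnf and Ebi3 rose and Ltb fell. With TLR2.CD86 2 rose against unstimulated cells, Il1rn by 0.65 (SE 0.14, adjusted p = 0.028) and Tnf by 1.27 (SE 0.20, adjusted p = 0.015). With anti-CD40 and Pam2CSK4 3 rose, Il1rn by 0.80, Tnf by 1.66 and Ebi3 by 2.12, and Tgfb3 fell by 0.89. Ebi3 rose by 1.53 with anti-CD40 alone (SE 0.16, adjusted p = 0.0018), while Tgfb3 fell by 0.84 with anti-CD86 alone and by 0.47 with anti-CD40 alone. Tnf, the gene of tumour necrosis factor, lay at 0.70 and 0.74 in unstimulated cells, 1.80 and 2.09 with Pam2CSK4, and 2.34 and 2.42 with anti-CD40 and Pam2CSK4.

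Of 22 regulators of these cytokine genes and mRNAs all were tested. Nfkbiz, an inducible partner of NF-kB needed for Il6 and Il12b transcription in macrophages, rose by 1.81 with Pam2CSK4 (SE 0.14, adjusted p = 0.0048), and Irf4, a factor of plasma cell fate, rose by 1.10 (SE 0.11, adjusted p = 0.015). These were the 2 regulators that passed with Pam2CSK4 alone and also the 2 that passed when it was added to anti-CD86. Anti-CD40 raised 6 (Stat6, Nfkbiz, Irf4, Batf, Rel and Stat4) and lowered 3 (Maf, Cebpd and Nfil3), where 16.8% of all probes passed. With anti-CD40 and Pam2CSK4 7 rose and Cebpd fell, with Nfkbiz at 5.47 and 5.51 against 3.06 and 3.11 in unstimulated cells. TLR2.CD86 raised 4 and lowered 3, whereas anti-CD86 alone changed 0 of the 22 with limma on group means (8 at an unadjusted p under 0.05). With slide as a block anti-CD86 alone changed 8 of the 22, where 28.5% of all probes passed. Nfkbiz stood at 3.11 and 3.16 with anti-CD86 alone, close to the unstimulated arrays.

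Of 19 receptor chains 17 were tested. Il15ra rose by 1.91 with anti-CD40 (SE 0.25, adjusted p = 0.00428), from -3.45 and -3.30 in unstimulated cells to -1.46 on both arrays. Il10ra, the ligand-binding chain of the Il10 receptor, fell by 1.25 with anti-CD40 (SE 0.21, adjusted p = 0.01). In the same comparison Il2rg rose and Il12rb1 fell, so that 4 of the 17 passed, where 16.8% of all probes did. Il4ra, Il12rb2 and Il15ra rose with anti-CD40 and Pam2CSK4. Pam2CSK4 alone and anti-CD86 alone changed 0 of the 17 with limma on group means (4 and 6 at an unadjusted p under 0.05). With slide as a block they changed 3 and 6 of the 17, where 11.1% and 28.5% of all probes passed. Of 13 maturation factors 11 were tested. Pycard, the adaptor through which caspase-1 is activated, fell by 0.75 with TLR2.CD86, by 0.69 with anti-CD40 and by 0.70 with anti-CD40 and Pam2CSK4 (adjusted p 0.0175 to 0.0258). Lrrc33, an anchor of latent TGF-beta, rose by 0.58 with anti-CD40 and by 0.90 with anti-CD40 and Pam2CSK4.

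**Figure D4:**
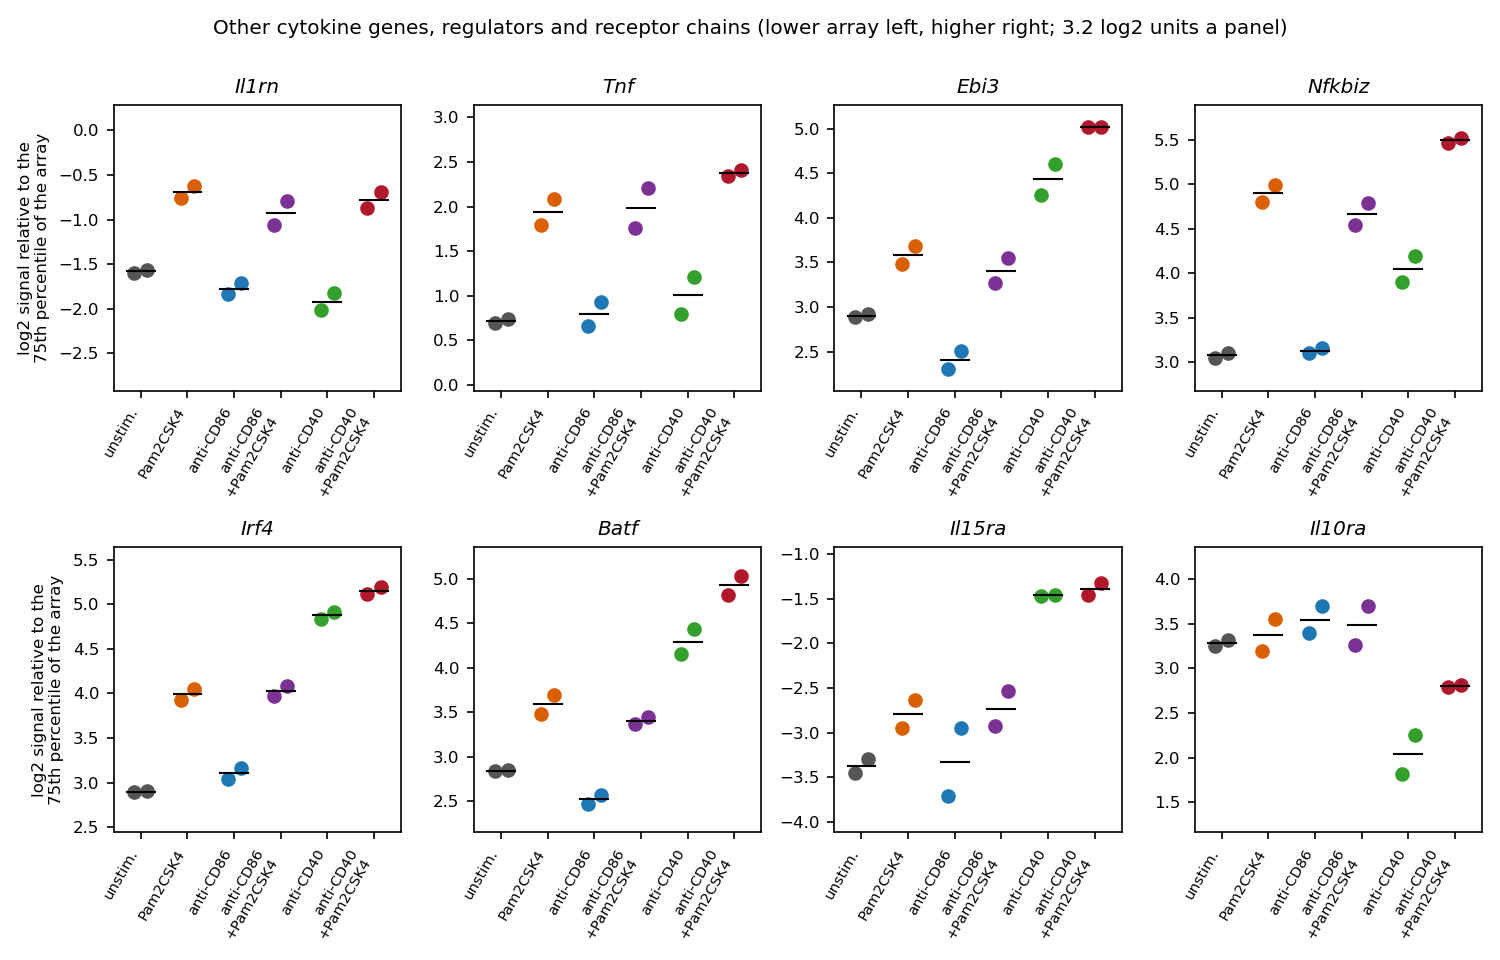
Log2 signal above the array's 75th percentile for 8 genes of the pathway lists, chosen for the figure after their values were seen, with 1 point per array (the lower array left and the higher right) and a line at the group mean. Il1rn and Tnf lie higher in the 3 groups with Pam2CSK4, Il15ra lies at -1.46 to -1.33 in the groups with anti-CD40, and Il10ra is lowest with anti-CD40 alone.

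The 3 genes most like each called cytokine were found, as a description, by Pearson's r over the 6 group means of the same 12 arrays, among genes whose group means spanned at least 1 log2 unit. They were Il1rn (r = 0.998), Irg1 and Ptgs2 for Il12b, Ccl3 (r = 0.996), Irg1 and Il6 for Il1b, and Il1b (r = 0.991), Ccl3 and Spic for Il6. For Il4 they were Tnfsf13 (r = 0.979), E2f8 and Flrt3. For Il15, with only bounds in 2 groups, they were Gm2554 (r = 0.928), Cldn13 and Cd14.

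Markers of other cells moved with some of these values. The 7 monocyte and macrophage markers had a summed signal (in multiples of the 75th percentile of the array) of 13.8 to 13.9 in unstimulated cells, 14.2 to 16.8 with Pam2CSK4, 9.08 to 10.8 with anti-CD86, 10.8 to 13.9 with TLR2.CD86, 8.27 to 10.48 with anti-CD40 and 12.4 to 12.6 with anti-CD40 and Pam2CSK4. Beside Il6, Il1b and Il12b this sum was also lower under each antibody alone. For Pam2CSK4 against unstimulated cells the markers Csf1r, Lyz2, Cd14, Itgam, Emr1 and Cd68 had adjusted p-values of 0.12 to 0.823. The 6 dendritic cell markers summed to 4.99 to 5.03 in unstimulated cells, 5.01 to 5.34 with Pam2CSK4, 4.25 to 4.61 with anti-CD86, 4.15 to 4.33 with TLR2.CD86, 7.89 to 9.45 with anti-CD40 and 8.72 to 9.06 with anti-CD40 and Pam2CSK4. Of these, only Zbtb46 passed limma for Pam2CSK4 against unstimulated cells (log2 1.10, adjusted p = 0.0424), where Il12b rose too. Xcr1 (1.43) and Flt3 (0.50) were higher and Siglech (-0.54), Clec9a (-0.33) and Itgax (-0.21) lower, with adjusted p-values of 0.24 to 0.483. Zbtb46 also had the widest range of the 6 over the arrays (-0.86 to 2.57), so these sums are not a shared change of the markers. Beside Ifng, the 6 NK cell markers summed to 10.997 to 11.2 in unstimulated cells, 8.49 to 9.21 with anti-CD86 and 7.92 to 9.13 with anti-CD40, and the 8 T cell markers to 31.6 to 32.0, 21.5 to 25.7 and 21.4 to 27.1. With TLR2.CD86 these sums were 7.50 to 8.24 and 19.6 to 25.6, although the mean of Ifng was 0.34 there and 0.07 with anti-CD86. They were 9.21 to 9.70 and 24.0 to 28.4 with Pam2CSK4, and 9.48 to 10.2 and 27.7 to 28.0 with anti-CD40 and Pam2CSK4. Beside Il4, the 6 mast cell and basophil markers summed to 16.4 to 16.9 in unstimulated cells, 13.2 to 14.3 with anti-CD86 and 14.5 to 18.0 with TLR2.CD86. The 5 neutrophil markers summed to 475 to 500.4 in unstimulated cells, 387 to 411 with anti-CD86 and 376 to 433 with anti-CD40, and the 4 plasma cell markers to 200 to 221, 180 to 197 and 194 to 225. The 8 B cell markers summed to 339 to 368 in unstimulated cells, 326 to 374 with Pam2CSK4, 316 to 346 with anti-CD86 and 363 to 426 with anti-CD40. S100a9, Igj and Cd79b, the brightest markers of the neutrophil, plasma cell and B cell lists, each had a lowest signal of 7.39. Every array had saturated spots (987 to 1206), and these probes may be among them. The sums of these lists may then follow the array's 75th percentile, so their differences between groups are not read as marker changes. The part of the other cells in the cytokine values was not tested.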

How the data were processed

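RNA of RB cells was labelled with Cy3 and hybridised by the authors to a custom mouse whole genome array, and Feature Extraction (Agilent) read the images. Per the file headers, each spot's deposited intensity is a processed signal that was already corrected for background and spatial trend. The authors also deposited log2 values of the same arrays, with 1 constant per array subtracted near its 75th percentile as the values show. These were an alternative. Here, spots flagged as control or outlier were dropped, spots of 1 probe were averaged, and each array's 75th percentile was taken from its log2 intensities. A probe had to be well above background in both replicates of some group and free of missing values, which left 31601. They were fitted in limma 3.58.1 (R 4.3.3) with 1 coefficient per group over 12 arrays and Benjamini-Hochberg adjustment, and an adjusted p under 0.05 made a call. The brightest probe stood for a gene.

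Feature Extraction counted 46.6% to 60.6% of spots as well above background, and the number of arrays limits the precision. The genes, lists, tests and alternatives were chosen with earlier results of these data known. Fold changes were given for genes that passed with or without slide as a block or changed by at least 0.5 on the log2 scale, and a group with no array well above background got a bound. Alternatives were other normalizations, background correction, no filter, slide as a block, slide 1 alone, the replicate block, unmoderated variances (the form of the study's own test), other probe rules and each array left out. The fit was checked on simulated data. Accessions of 11 of 12 probes matched RefSeq (GRCm38.p6). The array design was annotated to another build, so no probe coordinates are given. Other tables and the figures were made in Python 3.11.15 (matplotlib 3.10.9, numpy 2.4.6, pandas 2.3.3).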

Additional observations from a re-analysis of the deposited data

How the results depend on the processing

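The numbers of cytokine genes passing depended on the setting. The comparisons are taken in the order Pam2CSK4, anti-CD86, TLR2.CD86, anti-CD40 and anti-CD40 with Pam2CSK4, each against unstimulated cells, and the numbers on group means were 1, 2, 2, 2 and 2. Median normalization, with 0.215% to 1.47% of all probes passing, gave 0, 0, 0, 0 and 0. It then gave 0 for Pam2CSK4 on anti-CD86 (0.133% of all probes) and 1 on anti-CD40 (1.09%). Slide as a block gave 4, 7, 7, 8 and 7, then 2 for anti-CD86 on Pam2CSK4, 5 for Pam2CSK4 on anti-CD86, 4 for anti-CD40 on Pam2CSK4 and 5 for Pam2CSK4 on anti-CD40. In these slide-block comparisons 7.74% to 47.5% of all probes passed, and the block raised the calls for Pam2CSK4 from 46 to 3510. Quantile normalization gave 2 for Pam2CSK4 (0.332% of all probes) and 4 for anti-CD86 (5.53%). Normexp and unmoderated variances gave 2 for Pam2CSK4 (0.291% and 0.538% of all probes). Without a filter on dim probes anti-CD86, TLR2.CD86 and anti-CD40 gave 0 (0.0%, 0.0425% and 1.82% of all probes). Anti-CD40 with Pam2CSK4 gave 1 (4.06%) and Pam2CSK4 on anti-CD86 gave 1 (0.0261%). Slide 1 alone gave 6 for anti-CD40 with Pam2CSK4 against unstimulated cells, where 40.2% of all probes passed. The other groups had only 1 array each on slide 1, so no slide 1 counts are given for them. The replicate block gave 2, 5, 4, 5 and 4, where 0.775%, 12.6%, 24.6%, 29.8% and 27.0% of all probes passed. The correlation of replicate differences was 0.54 to 0.67 among the groups split between slides and -0.11 to 0.067 in pairs with the other groups. In the split groups replicate 1 lay on slide 1 and replicate 2 on slide 2. A pairing by replicate number and the slide therefore cannot be told apart there. Leaving out 1 array gave 0 to 1, 0 to 2, 0 to 3, 0 to 4 and 1 to 3, with 1 to 3 for Pam2CSK4 on either antibody and 0 for either antibody on Pam2CSK4 and for the interactions. Without either unstimulated array, fewer of all probes passed too in every comparison with unstimulated cells. A cytokine call lost in those fits is therefore not particular to the cytokine genes. Under median normalization Il12a turned to -0.19 with TLR2.CD86 and -0.30 with anti-CD40, and Tgfb1 to -0.26 with TLR2.CD86. With 1 array left out these TLR2.CD86 values ran from -0.044 (without TLR2.CD86 replicate 1) to 0.23 (without its replicate 2) for Il12a and from -0.22 to 0.28 for Tgfb1, without the same arrays. The rise of Il12b with Pam2CSK4 on anti-CD40 passed under all 22 alternatives, and the deposited log2 values left all 52 gene values on the same side. The causes were not tested. Signal near background limits Il15.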
